A study of Mus musculus with 24 samples.

Results

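The comparison described here sets Lgr5low cells against Lgr5neg cells of the small-intestinal crypt in 3 mice that received only the vehicle. Its members are 6 of the 24 libraries of the series, 1 Lgr5low and 1 Lgr5neg library from each mouse, and the pairs were matched by the mouse. All animals were male C57BL/6 littermates carrying the Lgr5-EGFP reporter, a green fluorescent protein expressed under control of the stem cell gene Lgr5. The 3 mice were injected intraperitoneally with PBS every 12 h for 5 days and their tissue was taken on day 6. Mice 1 and 2 were 15 weeks old and mouse 3 was 11 weeks old. Villi were scraped off, crypts were released with EDTA and dissociated, and cells positive for CD31 (endothelium), CD45 (leukocytes) or propidium iodide (dead cells) were sorted out. Lgr5low cells had low EGFP and low CD24 and are called subsequent progenitors in the labels. Lgr5neg cells had neither signal and are called differentiated cells there, so the gate takes any remaining cell type that lacks both. The series holds 4 such populations (Lgr5high, Lgr5med, Lgr5low and Lgr5neg) from 3 PBS mice and from 3 mice of the same ages given 7.5 µg of neuregulin 1 (NRG1, a ligand of ErbB receptors) on the same schedule, in 8 groups of 3 libraries of total RNA.

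In the intestinal crypt, stem cells at the base feed a zone of rapidly dividing progenitors, which leave the cell cycle as they move up towards the villus. Most become enterocytes, the absorptive cells whose brush border carries digestive enzymes and transporters, and the remainder become goblet, Paneth, enteroendocrine or tuft cells. Wnt and Notch signals are strong near the base, and BMP signals rise towards the villus.

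Values are CPM, counts scaled to a common library total with edgeR's TMM factors, and are listed for mice 1, 2 and 3 in that order. A positive log2 difference means a higher level in Lgr5low cells. Adjusted p-values come from edgeR's quasi-likelihood test with the mouse as a term, and a gene is called when its adjusted p is under 0.05. The sorted gates could be recognised in the reads. Lgr5 stood at 5.77, 8.82 and 10.5 CPM in Lgr5low and 1.05, 1.62 and 1.24 CPM in Lgr5neg cells. Lgr5 had a log2 difference of 2.75 (SE 0.669, adjusted p = 0.00993). Cd24a, which encodes the other antigen of the gate, stood at 285, 363 and 334 CPM in Lgr5low and 20.9, 30.8 and 35.6 CPM in Lgr5neg cells. Both genes set the gates, so these values check the labels and are no result. The Lgr5 call ended without mouse 3 (adjusted p = 0.0526) and without the Lgr5neg library of mouse 1 (adjusted p = 0.0621).

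The markers named for the pair of populations went with their labels. Mki67, the proliferation antigen Ki-67 (GRCm38, chr7:135689784-135716361), was measured at 736, 579 and 677 CPM in Lgr5low and 21.9, 44.1 and 41.9 CPM in Lgr5neg cells. Every Lgr5low library lay above every Lgr5neg library. Mki67 had a log2 difference of 4.23 (SE 0.21, adjusted p = 1e-11). Reg3b, a secreted lectin of the epithelial defence (chr6:78370657-78373466), was measured at 420.2, 266 and 341 CPM in Lgr5low and 5467, 5372 and 6015 CPM in Lgr5neg cells and was higher in all Lgr5neg libraries. Reg3b had a log2 difference of -4.04 (SE 0.28, adjusted p = 3.38e-08). In bulk libraries such as these, fewer cells of a type and less RNA per cell cannot be told apart.

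Library totals were similar between the populations, but the libraries differed in makeup. Lgr5low libraries held 19093589 to 23343499 counts and Lgr5neg libraries 18477087 to 23240804. Mitochondrial ribosomal RNA took 41.6% to 47.1% of the Lgr5low and 54.1% to 54.4% of the Lgr5neg counts. At 10 or more counts stood 13275 to 13461 genes in Lgr5low and 11624 to 11936 in Lgr5neg libraries. The 50 most abundant genes took 22.8% to 25.7% against 29.6% to 33.1% of the counts outside mitochondrial ribosomal RNA. TMM factors were 1.03 to 1.17 in Lgr5low and 0.573 to 0.667 in Lgr5neg libraries. Of 14203 genes tested, 8232 (58%) were called, 4487 (31.6%) higher and 3745 (26.4%) lower in Lgr5low cells, and the median over all genes was 0.11. Counts of called genes in the lists below are to be read against these shares. With libraries scaled only by their counts outside mitochondrial ribosomal RNA the median moved up by 0.523 and the split became 7201 higher and 1998 lower, so directions below are relative to TMM unless stated. Against a 2-fold minimum, 1953 genes (13.8%) were higher and 1296 (9.12%) lower. The 3 Lgr5low libraries did not overlap with the 3 Lgr5neg libraries for 59.7% of all genes tested. The part of library makeup in the differences was not tested.

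**Figure D1:**
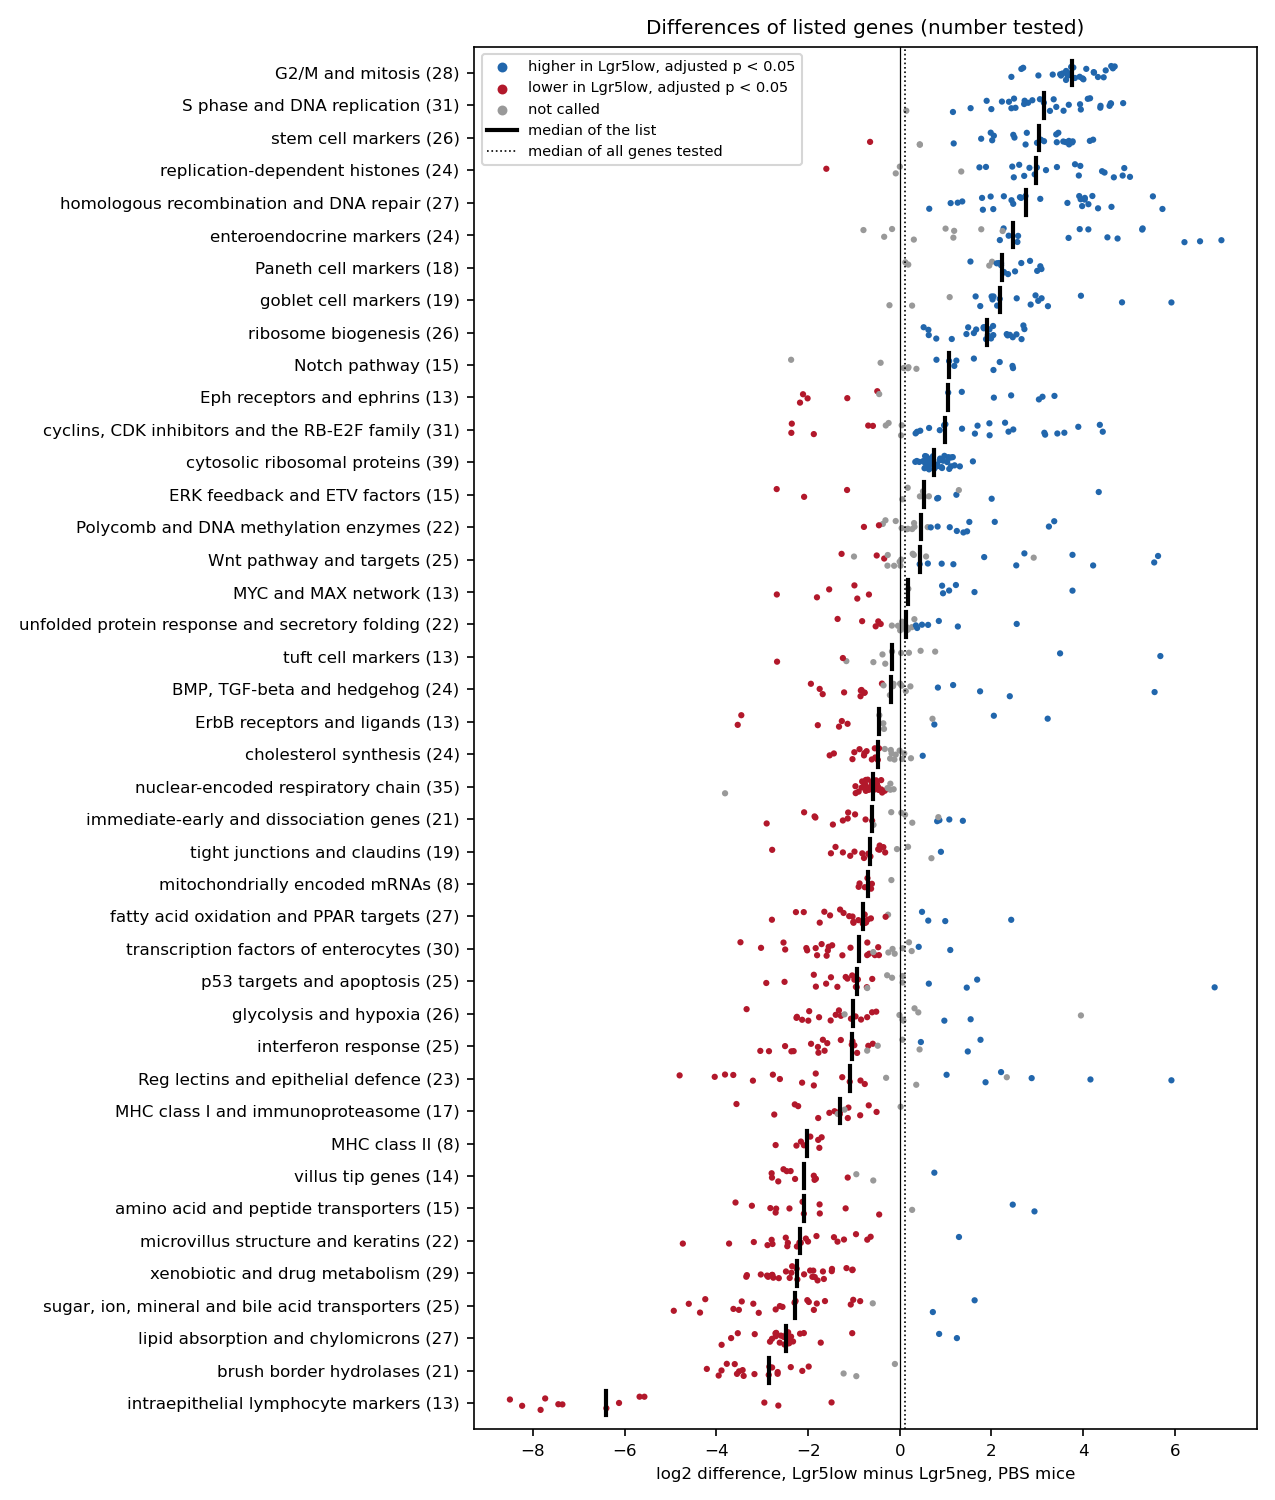
Log2 differences between Lgr5low and Lgr5neg cells of PBS mice (x axis) for every tested gene of 42 gene lists (y axis, number tested in brackets). Points are genes, coloured by the call, short bars are list medians and the dotted line is the median of all genes, 0.11. Cell division lists lie to the right and absorptive lists to the left.

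Genes of cell division were higher in Lgr5low cells. All 28 genes of the G2/M and mitosis list were called higher, against 31.6% of all genes, and the median log2 difference was 3.76, with a range from 2.44 to 4.69. Top2a, the topoisomerase that untangles chromosomes, was measured at 318, 328 and 306 CPM in Lgr5low and 9.7, 16.4 and 16.6 CPM in Lgr5neg cells. Top2a had a log2 difference of 4.49 (SE 0.172, adjusted p = 1.39e-13). Aurkb, a kinase of the chromosomal passenger complex, stood at 51.2, 46.4 and 44 CPM in Lgr5low and 1.8, 2.27 and 1.41 CPM in Lgr5neg cells. Aurkb had a log2 difference of 4.69 (SE 0.169, adjusted p = 1.39e-13). Foxm1, a transcription factor of G2/M genes, stood at 62.8, 43.2 and 39.8 CPM in Lgr5low and 1.5, 2.6 and 1.65 CPM in Lgr5neg cells. Foxm1 had a log2 difference of 4.65 (SE 0.214, adjusted p = 9.38e-13). Ttk, a kinase of the spindle checkpoint, showed 23.1, 24.8 and 26.6 CPM in Lgr5low and 0.752, 1.14 and 1.16 CPM in Lgr5neg cells. Ttk had a log2 difference of 4.61 (SE 0.212, adjusted p = 9.38e-13). Ccnb1, the mitotic cyclin B1, stood at 25.5, 27.2 and 22.3 CPM in Lgr5low and 2.71, 1.7 and 2.07 CPM in Lgr5neg cells. Ccnb1 had a log2 difference of 3.52 (SE 0.187, adjusted p = 6.35e-12). The populations did not overlap for any of the 28 genes, against 59.7% of all genes without overlap.

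Promoter sequence was not used by the comparison. Genes of late cell division are known to carry a cell cycle homology region, read by the DREAM and MuvB complexes, close to the transcription start and a short way downstream of CCAAT boxes, which NF-Y binds. In RefSeq promoter windows of 300 bases (250 before and 50 after the start, GRCm38.p6), both strands searched, TTTGAA occurred in 19 of the 24 windows of the list (79.2%), against 17.9% of all 32851 windows and 12.3% of the windows of genes tested here. CCAAT occurred in 22 of the 24 (91.7%), against 37.4% of all windows. Over the 1727 windows of genes over 2-fold higher in Lgr5low cells the shares were 16.2% for TTTGAA and 41.5% for CCAAT. Of 23 members with a window, 18 held both motifs and 17 had a TTTGAA match within 50 bases of the start, where 4.92% of all genes and 3.08% of the tested genes had one. The median place of the match nearest the start was base 4 after it. The S phase list had TTTGAA in 3 of 31 windows (9.68%), CCAAT in 19 (61.3%) and 1 of 4 spellings of the E2F motif (TTTGGCGC, TTTCCCGC, TTTCGCGC or TTTGCCGC) in 12 (38.7%), against 2.26% of all windows. A match of letters is a description and shows no binding. The stretches around the match in Mki67 (chr7:135716462-135716527, minus strand), Top2a (chr11:99024197-99024262, minus strand) and Ttk (chr9:83834646-83834711, plus strand) are printed as examples of the pair of motifs. They are given 5′ to 3′, with CCAAT (or ATTGG) and TTTGAA (or TTCAAA) in capitals:
Mki67: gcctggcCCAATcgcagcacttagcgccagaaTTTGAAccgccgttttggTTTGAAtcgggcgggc
Top2a: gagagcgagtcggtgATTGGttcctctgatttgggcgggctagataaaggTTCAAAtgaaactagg
Ttk: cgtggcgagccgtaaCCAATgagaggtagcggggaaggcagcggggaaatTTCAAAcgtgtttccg
The CCAAT box before the match began 43 bases upstream of it in Mki67, 35 in Top2a and 35 in Ttk. Over the list this distance varied widely, from 9 bases in Kif23 to 153 in Bub1b. The Mki67 stretch also holds a TTTGAA nearer to its CCAAT box. In Mki67 the match nearest the annotated start began at base -98.

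Of 31 tested genes of the S phase list, 30 were called higher (median 3.15). Rrm2, a subunit of ribonucleotide reductase, was measured at 49.9, 53.6 and 37.5 CPM in Lgr5low and 1.28, 1.7 and 1.82 CPM in Lgr5neg cells. Rrm2 had a log2 difference of 4.87 (SE 0.196, adjusted p = 2.4e-13). Pola1, the catalytic subunit of the primase-polymerase complex, stood at 23.3, 30.1 and 22.9 CPM in Lgr5low and 0.902, 1.3 and 0.91 CPM in Lgr5neg cells. Pola1 had a log2 difference of 4.61 (SE 0.209, adjusted p = 8.44e-13). Ung, which removes uracil from DNA, stood at 37.8, 46 and 31.5 CPM in Lgr5low and 0.451, 2.27 and 2.07 CPM in Lgr5neg cells. Ung had a log2 difference of 4.60 (SE 0.302, adjusted p = 9.1e-09). The sliding clamp Pcna differed less, at 69, 64 and 65.2 CPM in Lgr5low and 33.3, 22.7 and 33.4 CPM in Lgr5neg cells. Pcna had a log2 difference of 1.16 (SE 0.133, adjusted p = 2.83e-07). Fen1 had 6 counts in Lgr5low and 1 in Lgr5neg libraries and was not tested. The Rrm2 promoter, from base -120 to base 20 around the start (chr12:24708134-24708273, plus strand), is printed because Rrm2 led its list. It holds 1 CCAAT box, in capitals, at base -50 and none of the E2F spellings or TTTGAA:
Rrm2: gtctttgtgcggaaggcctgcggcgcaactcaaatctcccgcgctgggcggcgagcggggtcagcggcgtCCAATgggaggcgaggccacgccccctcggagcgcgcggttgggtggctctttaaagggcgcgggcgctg

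All 27 genes of the homologous recombination and repair list were higher (median 2.74). Members with few Lgr5neg counts, such as Rad54b (2), Xrcc2 (15) and Timeless (27), passed the filter on low counts through other populations. The count of calls is thus partly set by that filter. Exo1, an exonuclease of end resection, was measured at 10.4, 11.6 and 11.7 CPM in Lgr5low and 0.15, 0.487 and 0.0827 CPM in Lgr5neg cells. Exo1 had a log2 difference of 5.52 (SE 0.332, adjusted p = 3.15e-11). Rad54b, a protein of recombinational repair, had 546 counts in the 3 Lgr5low libraries and 2 in the 3 Lgr5neg libraries, a ratio of 152 (95% interval 41.8 to 1256) for counting error only. Of 24 tested histone genes that are normally transcribed with replication, 20 were higher and 1 was lower (median 2.97). The linker histone gene Hist1h1b stood at 49.6, 23.8 and 35.2 CPM in Lgr5low and 1.8, 1.22 and 1.99 CPM in Lgr5neg cells. Hist1h1b had a log2 difference of 4.41 (SE 0.24, adjusted p = 1.43e-11). The exception was Hist1h2bc, an H2B gene, at 16.1, 19.8 and 21.5 CPM in Lgr5low and 58.9, 45.9 and 69.4 CPM in Lgr5neg cells, all Lgr5neg libraries being higher. Hist1h2bc had a log2 difference of -1.60 (SE 0.147, adjusted p = 1.29e-08). Histone genes are close copies of each other, so the split of reads among them is uncertain.

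In the list of cyclins, CDK inhibitors and RB-E2F genes, 22 of 31 were higher and 5 lower (median 1.00). E2f1, an activator of S phase genes, was measured at 10.6, 10.8 and 7.83 CPM in Lgr5low and 0.752, 0.162 and 0.414 CPM in Lgr5neg cells. E2f1 had a log2 difference of 4.43 (SE 0.341, adjusted p = 9.83e-10). The atypical repressors E2f7 and E2f8 differed by 4.37 and 3.90. Ccnd1, cyclin D1, stood at 87.6, 79.3 and 77.5 CPM in Lgr5low and 13.6, 38.8 and 25 CPM in Lgr5neg cells. Ccnd1 had a log2 difference of 1.70 (SE 0.265, adjusted p = 0.000197). Higher in Lgr5neg cells was Cdkn1a, the CDK inhibitor p21, at 96.7, 76.7 and 149 CPM in Lgr5low and 448.1, 313 and 395 CPM in Lgr5neg cells. Cdkn1a had a log2 difference of -1.87 (SE 0.236, adjusted p = 1.93e-05). Cdkn2b, the inhibitor p15, stood at 17.2, 11.1 and 14.5 CPM in Lgr5low and 81.1, 77.3 and 60.8 CPM in Lgr5neg cells. Cdkn2b had a log2 difference of -2.35 (SE 0.207, adjusted p = 2.33e-08). Ccng2, a cyclin linked to arrest, showed 11.3, 13 and 13.4 CPM in Lgr5low and 80.4, 55.6 and 58.3 CPM in Lgr5neg cells. Ccng2 had a log2 difference of -2.36 (SE 0.18, adjusted p = 8.39e-10). Cdkn1b, which encodes the inhibitor p27, went the other way, at 30.5, 34 and 29.7 CPM in Lgr5low and 17.7, 21.6 and 21 CPM in Lgr5neg cells. Cdkn1b had a log2 difference of 0.64 (SE 0.146, adjusted p = 0.000833). In the list of Polycomb genes and DNA methylation enzymes 10 of 22 were higher and 2 lower (17 higher with total-count scaling). Dnmt1, the maintenance methyltransferase that acts at replication, was measured at 94.2, 89 and 85.1 CPM in Lgr5low and 7.82, 12 and 8.35 CPM in Lgr5neg cells. Dnmt1 had a log2 difference of 3.25 (SE 0.154, adjusted p = 1.46e-12). Ezh2, the H3K27 methyltransferase of dividing cells, stood at 35.1, 42.7 and 44.4 CPM in Lgr5low and 16.4, 17.7 and 12.6 CPM in Lgr5neg cells. Ezh2 had a log2 difference of 1.39 (SE 0.149, adjusted p = 1.11e-07).

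All 26 ribosome biogenesis genes were higher in Lgr5low cells (median 1.90), and so were all 39 tested genes of cytosolic ribosomal proteins, by less (median 0.76, range 0.34 to 1.60). Polr1a, the largest subunit of RNA polymerase I, was measured at 39.8, 42.3 and 39.4 CPM in Lgr5low and 4.96, 9.17 and 4.47 CPM in Lgr5neg cells. Polr1a had a log2 difference of 2.72 (SE 0.202, adjusted p = 1.54e-09). The nucleolar protein gene Ncl stood at 518, 572 and 531 CPM in Lgr5low and 138, 148 and 142 CPM in Lgr5neg cells. Ncl had a log2 difference of 1.92 (SE 0.151, adjusted p = 1.36e-09). Rpl12 stood at 239, 196 and 157 CPM in Lgr5low and 72.8, 67.6 and 54.6 CPM in Lgr5neg cells. Rpl12 had a log2 difference of 1.60 (SE 0.159, adjusted p = 4.04e-08). Many ribosomal protein genes have processed pseudogenes that can share reads.

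In the MYC and MAX network 6 of 13 genes were higher in Lgr5low cells and 6 lower. Myc, the growth-promoting transcription factor, stood at 89.2, 72.9 and 72 CPM in Lgr5low and 3.76, 6.01 and 7.44 CPM in Lgr5neg cells. Myc had a log2 difference of 3.77 (SE 0.214, adjusted p = 1.3e-10). Mxd1 and Mxi1, which pair with MAX and oppose MYC, were higher in Lgr5neg cells. Mxd1 was measured at 46.8, 36.9 and 62.3 CPM in Lgr5low and 342, 321 and 271 CPM in Lgr5neg cells. Mxd1 had a log2 difference of -2.68 (SE 0.288, adjusted p = 1.76e-05). Mxi1 stood at 11.8, 15.9 and 12.1 CPM in Lgr5low and 55.7, 46.1 and 38.5 CPM in Lgr5neg cells. Mxi1 had a log2 difference of -1.81 (SE 0.177, adjusted p = 3.09e-08). Max itself, the shared partner, stood at 160.0, 189 and 206 CPM in Lgr5low and 543, 439.6 and 629 CPM in Lgr5neg cells. Max had a log2 difference of -1.54 (SE 0.16, adjusted p = 7.09e-08). The Lgr5low and Lgr5neg libraries did not overlap for any of these 4 genes. Over the list this held for 11 of 13 genes, against 59.7% of all genes tested.

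Of 26 stem cell markers, 23 were higher in Lgr5low cells and 1 was lower (median 3.04). Lgr5 is a member and set the gate, so the list is partly tied to the sort. Tnfrsf19, with 157 counts in Lgr5low and 7 in Lgr5neg libraries, passed the filter on low counts through other populations. The count of calls carries that limit too. Olfm4, a secreted glycoprotein of crypt base cells, was measured at 248, 212 and 226 CPM in Lgr5low and 12.4, 17 and 20.4 CPM in Lgr5neg cells. Olfm4 had a log2 difference of 3.76 (SE 0.27, adjusted p = 3.91e-08). Ascl2, which maintains the stem cell state, stood at 8.89, 7.88 and 7.09 CPM in Lgr5low and 0.526, 0.406 and 0.414 CPM in Lgr5neg cells. Ascl2 had a log2 difference of 4.15 (SE 0.29, adjusted p = 2.57e-10). Cd44, a Wnt-regulated surface receptor, stood at 36.3, 33.1 and 37.7 CPM in Lgr5low and 1.8, 1.7 and 2.32 CPM in Lgr5neg cells. Cd44 had a log2 difference of 4.22 (SE 0.194, adjusted p = 9.71e-13). The member that was lower was Vdr, the vitamin D receptor, at 387, 232 and 270.3 CPM in Lgr5low and 426, 456 and 466 CPM in Lgr5neg cells. Vdr had a log2 difference of -0.65 (SE 0.153, adjusted p = 0.00114). Its call ended with total-count scaling (adjusted p = 0.515).

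Of 25 tested Wnt pathway genes and targets, 11 were higher and 3 lower, with a median of 0.43; 17 were higher with total-count scaling. Axin2, a direct target and feedback inhibitor of Wnt signalling (chr11:108920349-108950783), was measured at 52.6, 50.7 and 54.7 CPM in Lgr5low and 46.7, 41.1 and 40.4 CPM in Lgr5neg cells. Axin2 had a log2 difference of 0.31 (SE 0.136, adjusted p = 0.0593). All 3 Lgr5low libraries were above the Lgr5neg libraries, and the gene was not called. Its adjusted p fell to 0.016 without the Lgr5low library of mouse 1, to 0.0326 without the Lgr5neg library of mouse 2 and to 4.67e-05 with total-count scaling. Means of Axin2 in the 2 earlier gates were 252 ± 34 CPM (Lgr5high) and 122 ± 32 CPM (Lgr5med), with SD over 3 mice. Sox4, a transcription factor of progenitors, showed 8.56, 6.63 and 5.22 CPM in Lgr5low and 0.226, 0.0811 and 0.0827 CPM in Lgr5neg cells. Sox4 had a log2 difference of 5.64 (SE 0.382, adjusted p = 1.67e-10). Wnt3, a ligand made by Paneth cells, had 114 counts in the 3 Lgr5low libraries and 1 in the 3 Lgr5neg libraries, a ratio of 63.4 (95% interval 11.1 to 2525) for counting error only, and its Lgr5low levels of 0.415, 3.45 and 1.26 CPM differed widely between mice. Rnf43, a ubiquitin ligase that removes Wnt receptors, stood at 23.6, 28.1 and 33 CPM in Lgr5low and 20, 18.3 and 17 CPM in Lgr5neg cells. Rnf43 had a log2 difference of 0.61 (SE 0.182, adjusted p = 0.00748). That call ended without mouse 3 (adjusted p = 0.119) and without the Lgr5low library of mouse 2 (adjusted p = 0.0741). Sp5, another Wnt target, was higher in Lgr5neg libraries, at 2.37, 2.24 and 1.77 CPM in Lgr5low and 9.1, 3.33 and 3.72 CPM in Lgr5neg cells. Sp5 had a log2 difference of -1.27 (SE 0.312, adjusted p = 0.00163). It lost its call without the Lgr5neg library of mouse 1 (log2 difference -0.74, adjusted p = 0.0513).

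Eph receptors and their ephrin ligands position cells along the crypt. Ephb2 was measured at 73.3, 63.4 and 56 CPM in Lgr5low and 5.34, 9.74 and 7.2 CPM in Lgr5neg cells. Ephb2 had a log2 difference of 3.11 (SE 0.192, adjusted p = 1.02e-10). Ephb3 stood at 9.85, 13.3 and 9.18 CPM in Lgr5low and 0.601, 1.05 and 1.49 CPM in Lgr5neg cells. Ephb3 had a log2 difference of 3.38 (SE 0.32, adjusted p = 1.06e-07). Both were higher in every Lgr5low library. The ligand gene Efnb2 stood at 69.5, 52.8 and 72.8 CPM in Lgr5low and 122, 180.0 and 135 CPM in Lgr5neg cells. Efnb2 had a log2 difference of -1.14 (SE 0.163, adjusted p = 6.13e-06). Efna1 stood at 5.28, 6.18 and 5.27 CPM in Lgr5low and 22, 22.8 and 22.8 CPM in Lgr5neg cells. Efna1 had a log2 difference of -2.01 (SE 0.198, adjusted p = 3.52e-08). Both ligands were higher in every Lgr5neg library. The receptors Epha1 and Epha2 went with the ligands, with differences of -2.11 (SE 0.163) and -2.18 (SE 0.245). In all, 7 of 13 tested genes were higher and 5 lower.

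In the Notch list 9 of 15 tested genes were higher and none was lower (median 1.08). Notch1, a receptor, stood at 26.8, 18.7 and 15.4 CPM in Lgr5low and 3.76, 3.9 and 3.23 CPM in Lgr5neg cells. Notch1 had a log2 difference of 2.46 (SE 0.176, adjusted p = 3.33e-10). Hes1, a repressor induced by Notch, was measured at 26.7, 18 and 18.6 CPM in Lgr5low and 12.4, 7.06 and 10.8 CPM in Lgr5neg cells. Hes1 had a log2 difference of 1.08 (SE 0.146, adjusted p = 2.69e-06). Genes of the secretory fate, which Notch signalling holds back, were higher in the same libraries. Atoh1, the master transcription factor of that fate, stood at 34.8, 40.3 and 54.5 CPM in Lgr5low and 8.64, 12 and 7.78 CPM in Lgr5neg cells. Atoh1 had a log2 difference of 2.18 (SE 0.281, adjusted p = 2.01e-05). The ligand gene Dll1 stood at 26.1, 40.8 and 44 CPM in Lgr5low and 16.5, 11.4 and 6.7 CPM in Lgr5neg cells. Dll1 had a log2 difference of 1.62 (SE 0.375, adjusted p = 0.00496).

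In the list of BMP, TGF-beta and hedgehog genes 5 of 24 were higher and 10 lower in Lgr5low cells (median -0.18); with total-count scaling the median turned to 0.34 and 11 were higher and 3 lower, and 6 were lower without the Lgr5low library of mouse 1. Ihh, Indian hedgehog, stood at 15.5, 11.2 and 12.3 CPM in Lgr5low and 47.5, 43.7 and 39.3 CPM in Lgr5neg cells. Ihh had a log2 difference of -1.75 (SE 0.203, adjusted p = 4.37e-07). The ligand gene Bmp2 stood at 12, 9.76 and 13.4 CPM in Lgr5low and 29.5, 28.5 and 24.5 CPM in Lgr5neg cells. Bmp2 had a log2 difference of -1.21 (SE 0.234, adjusted p = 0.000214). Smad7, an inhibitor induced by TGF-beta signals, was measured at 15.4, 8.96 and 12.4 CPM in Lgr5low and 57.7, 46.3 and 36.2 CPM in Lgr5neg cells. Smad7 had a log2 difference of -1.94 (SE 0.18, adjusted p = 1.48e-08). Higher in Lgr5low cells was the hedgehog receptor gene Ptch1, at 35.8, 26.2 and 32.1 CPM in Lgr5low and 6.69, 8.44 and 12.7 CPM in Lgr5neg cells. Ptch1 had a log2 difference of 1.75 (SE 0.192, adjusted p = 2.55e-07). Smo, the transducer that PTCH1 inhibits, stood at 7.1, 5.87 and 5.69 CPM against 0.0752, 0.0811 and 0 CPM. The 424 counts in the 3 Lgr5low libraries and 2 in the 3 Lgr5neg libraries gave a ratio of 118 (95% interval 32.4 to 976).

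ErbB genes, the receptors through which NRG1 acts and their ligands, were mixed. Of 13 tested, 3 were higher and 6 lower in Lgr5low cells, against 31.6% and 26.4% of all genes (median -0.45, and 0.09 with total-count scaling). Egfr was measured at 48.7, 43.9 and 47.3 CPM in Lgr5low and 29.4, 29.5 and 24.2 CPM in Lgr5neg cells. Egfr had a log2 difference of 0.76 (SE 0.128, adjusted p = 3.97e-05). Erbb2 stood at 97.4, 75.3 and 72.4 CPM in Lgr5low and 183, 169 and 183 CPM in Lgr5neg cells. Erbb2 had a log2 difference of -1.14 (SE 0.12, adjusted p = 8.79e-08). Erbb3, the NRG1 receptor of this tissue, stood at 173, 139 and 164 CPM in Lgr5low and 347, 366 and 424 CPM in Lgr5neg cells. Erbb3 had a log2 difference of -1.26 (SE 0.126, adjusted p = 4.24e-08). Egfr was thus higher, and Erbb2 and Erbb3 lower, in every Lgr5low library. Erbb4 had no count in the 6 libraries, which allows a level of up to 0.14 CPM in Lgr5low and 0.248 CPM in Lgr5neg libraries. Of the EGFR ligands, Areg and Ereg were higher in Lgr5neg cells, while Egf was called higher in Lgr5low cells. The Egf call ended without mouse 3 (log2 difference 2.42, adjusted p = 0.0537). Areg, amphiregulin, stood at 0.582, 0.134 and 0.886 CPM in Lgr5low and 10.6, 4.63 and 3.97 CPM in Lgr5neg cells. Areg had a log2 difference of -3.53 (SE 0.529, adjusted p = 9.29e-06). Ereg, epiregulin, stood at 1.37, 0.806 and 0.606 CPM in Lgr5low and 10.4, 8.93 and 12 CPM in Lgr5neg cells. Ereg had a log2 difference of -3.46 (SE 0.415, adjusted p = 5.33e-07). Lrig1, a negative regulator of these receptors and a stem cell marker, stood at 37.8, 35.9 and 38.1 CPM in Lgr5low and 7.37, 10.3 and 9.18 CPM in Lgr5neg cells. Lrig1 had a log2 difference of 2.05 (SE 0.165, adjusted p = 1.97e-09). Among 15 genes of ERK feedback 5 were higher and 3 lower, near the shares of all genes (31.6% and 26.4%), and 10 were higher with total-count scaling. The count of higher genes was 2 without mouse 3, 3 without the Lgr5low library of mouse 2, 2 without that of mouse 3 and 3 without the Lgr5neg library of mouse 3. The largest difference in the list was that of Etv5, an ETS factor, at 3.41, 3.99 and 6.15 CPM in Lgr5low and 0.301, 0.162 and 0.165 CPM in Lgr5neg cells. Etv5 had a log2 difference of 4.34 (SE 0.424, adjusted p = 3.08e-08). Dusp6, a phosphatase of ERK, stood at 5.23, 3.99 and 6.62 CPM in Lgr5low and 49.5, 26.6 and 22.7 CPM in Lgr5neg cells. Dusp6 had a log2 difference of -2.68 (SE 0.339, adjusted p = 1.28e-05).

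**Figure D2:**
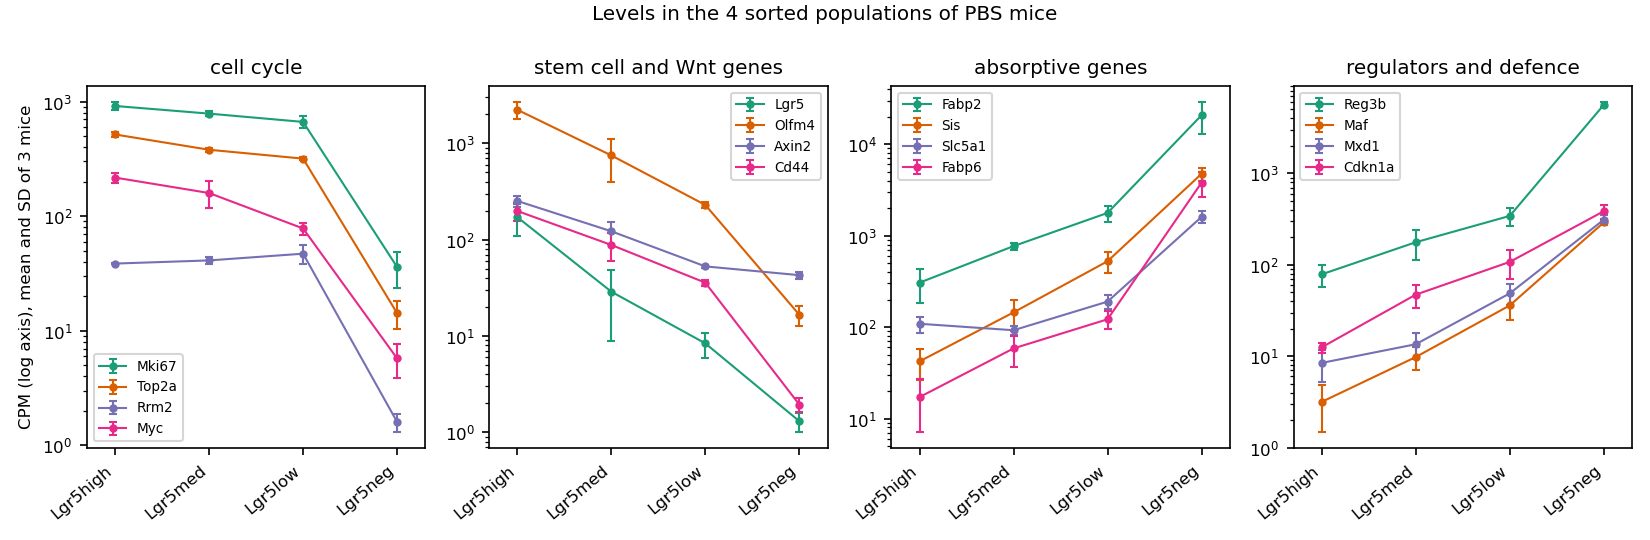
Mean level and SD over 3 PBS mice (y axis, CPM, log scale) of 16 named genes in the 4 sorted populations (x axis). Mki67, Top2a and Rrm2 differ by less than 2-fold over the first 3 gates and fall at the last, Olfm4 and Lgr5 fall at each gate, Axin2 has means of 52.7 and 42.7 in the last pair, and the absorptive genes rise at each gate except Slc5a1, which is similar in Lgr5high and Lgr5med cells.

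Genes of absorption were mostly higher in Lgr5neg cells. Of 21 brush border hydrolases 18 were lower in Lgr5low cells and none higher, against 26.4% of all genes called lower, and the median was -2.86. Sis, sucrase-isomaltase, was measured at 551, 378 and 646 CPM in Lgr5low and 4265, 4289.9 and 5670.0 CPM in Lgr5neg cells. Sis had a log2 difference of -3.17 (SE 0.306, adjusted p = 3.82e-06). Anpep, aminopeptidase N, stood at 1149.7, 573 and 890.3 CPM in Lgr5low and 10016, 8845 and 10240.3 CPM in Lgr5neg cells. Anpep had a log2 difference of -3.51 (SE 0.194, adjusted p = 1.13e-11). Enpp7, which digests sphingomyelin, showed 46, 26.9 and 52.2 CPM in Lgr5low and 848, 579 and 872 CPM in Lgr5neg cells. Enpp7 had a log2 difference of -4.21 (SE 0.426, adjusted p = 6.58e-05). Naaladl1, a brush border peptidase, stood at 168, 81.4 and 143 CPM in Lgr5low and 1961, 1865 and 2014 CPM in Lgr5neg cells. Naaladl1 had a log2 difference of -3.95 (SE 0.186, adjusted p = 1.46e-12). Alpi, intestinal alkaline phosphatase, differed less, at 366, 171 and 253 CPM in Lgr5low and 1374, 765 and 976 CPM in Lgr5neg cells. Alpi had a log2 difference of -1.99 (SE 0.385, adjusted p = 0.00263). In each of the 5 genes the lowest Lgr5neg library was above the highest Lgr5low library. Over the list 18 of 21 genes had groups that did not overlap, against 59.7% of all genes tested.

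The microvillus and its keratins followed, with 21 of 22 genes lower in Lgr5low cells (median -2.17). Vil1, the actin bundler villin, was measured at 373, 357 and 469 CPM in Lgr5low and 2337, 1881 and 2327 CPM in Lgr5neg cells. Vil1 had a log2 difference of -2.45 (SE 0.143, adjusted p = 2.14e-11). Pdzk1, a scaffold of apical transporters, showed 2.49, 2.42 and 4.57 CPM in Lgr5low and 49.8, 29.1 and 45.2 CPM in Lgr5neg cells. Pdzk1 had a log2 difference of -3.72 (SE 0.383, adjusted p = 4.26e-06). Tmigd1, an adhesion protein of mature enterocytes, stood at 3.32, 2.19 and 4.94 CPM in Lgr5low and 87.5, 91.1 and 94 CPM in Lgr5neg cells. Tmigd1 had a log2 difference of -4.73 (SE 0.248, adjusted p = 5.98e-11). The exception was the keratin gene Krt18, at 142, 153 and 159 CPM in Lgr5low and 63.5, 65.3 and 56.3 CPM in Lgr5neg cells. Krt18 had a log2 difference of 1.29 (SE 0.13, adjusted p = 4.43e-08).

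In the list of sugar, ion, mineral and bile acid transporters 22 of 25 were lower in Lgr5low cells and 2 higher (median -2.30). Fabp6, the ileal bile acid binding protein, was measured at 153, 106 and 107 CPM in Lgr5low and 3347, 5075 and 2972 CPM in Lgr5neg cells. Fabp6 had a log2 difference of -4.93 (SE 0.547, adjusted p = 0.000163). Slc10a2, the apical bile acid transporter that supplies it, stood at 2.04, 0.358 and 1.59 CPM in Lgr5low and 25, 37.8 and 33.6 CPM in Lgr5neg cells. Slc10a2 had a log2 difference of -4.60 (SE 0.461, adjusted p = 3.59e-06). Slc51b, a subunit of the basolateral exporter, stood at 10.1, 5.06 and 8.53 CPM in Lgr5low and 152, 137 and 153 CPM in Lgr5neg cells. Slc51b had a log2 difference of -4.24 (SE 0.336, adjusted p = 1.65e-06). Slc5a1, the sodium-glucose transporter, showed 209.6, 152 and 209 CPM in Lgr5low and 1642, 1344 and 1825 CPM in Lgr5neg cells. Slc5a1 had a log2 difference of -3.08 (SE 0.145, adjusted p = 1.41e-12). The basolateral sugar transporter Slc2a2 stood at 16.4, 12.2 and 16.8 CPM in Lgr5low and 156, 102 and 159 CPM in Lgr5neg cells. Slc2a2 had a log2 difference of -3.19 (SE 0.388, adjusted p = 0.000147). Of the members higher in Lgr5low cells, Cftr, the chloride channel of crypt secretion, was measured at 138, 134 and 147 CPM in Lgr5low and 58.9, 96.2 and 99.3 CPM in Lgr5neg cells. Cftr had a log2 difference of 0.72 (SE 0.167, adjusted p = 0.00106).

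HNF4, GATA and CDX2 factors are known regulators of enterocyte genes. The HNF4 motif CAAAGTCC occurred in 5 of 24 windows of the brush border list (20.8%), in 43 of 1265 windows of genes over 2-fold lower in Lgr5low cells (3.4%), in 1.502% of the windows of genes tested here and in 1.42% of all windows. AGATAA, the GATA motif, occurred in 5 of the 24 (20.8%) against 6.72% of the windows of tested genes and 11.2% of all windows. The CDX2 letters TTTATG occurred in 8.14% of windows of genes over 2-fold lower, 7.002% of those of tested genes and 11.9% of all windows, and in 4 of the 24 brush border windows (16.7%). The other absorptive lists had smaller shares of the HNF4 motif. It occurred in 1 of 23 windows of the microvillus list (4.35%), 2 of 23 of the sugar, ion, mineral and bile acid transporters (8.7%) and 1 of 21 of lipid absorption (4.76%). The GATA motif occurred in 4 (17.4%), 0 and 2 (9.52%) of these windows, and the CDX2 letters in 3 (13.04%), 3 (13.04%) and 4 (19.05%). The stretches from base -120 to base 20 are printed for Enpp7 (chr11:118988061-118988200, plus strand) and Fabp6 (chr11:43601543-43601682, minus strand), which led their lists. Capitals mark AGATAA at base -110 and GGACTTTG, the HNF4 letters on the other strand, at base -7 in Enpp7, and CATAAA, the CDX2 letters on the other strand, at base -111 in Fabp6:
Enpp7: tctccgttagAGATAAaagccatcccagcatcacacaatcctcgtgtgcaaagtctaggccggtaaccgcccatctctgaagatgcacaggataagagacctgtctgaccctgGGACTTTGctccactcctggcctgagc
Fabp6: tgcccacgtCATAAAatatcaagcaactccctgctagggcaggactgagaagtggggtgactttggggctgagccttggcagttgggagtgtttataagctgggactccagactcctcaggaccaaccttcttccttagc

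Of 15 amino acid and peptide transporters 12 were lower in Lgr5low cells and 2 higher (median -2.09). The peptide transporter Slc15a1 was measured at 28.8, 16.7 and 30.7 CPM in Lgr5low and 367, 232 and 316 CPM in Lgr5neg cells. Slc15a1 had a log2 difference of -3.58 (SE 0.446, adjusted p = 0.000295). The neutral amino acid transporter Slc6a19 stood at 29.7, 16.4 and 29.7 CPM in Lgr5low and 276, 204 and 229.6 CPM in Lgr5neg cells. Slc6a19 had a log2 difference of -3.23 (SE 0.406, adjusted p = 0.000257). Slc7a5 and Slc1a5, importers known from dividing cells, were higher in Lgr5low cells. Slc7a5 stood at 11.7, 12.8 and 11.2 CPM in Lgr5low and 0.827, 2.68 and 1.16 CPM in Lgr5neg cells. Slc7a5 had a log2 difference of 2.94 (SE 0.319, adjusted p = 5.81e-07). Slc1a5 stood at 39.1, 50.8 and 40.5 CPM in Lgr5low and 6.01, 9.98 and 7.69 CPM in Lgr5neg cells. Slc1a5 had a log2 difference of 2.47 (SE 0.162, adjusted p = 1.09e-10).

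The summed level of lipid absorption genes was 4281 to 6257 CPM in the Lgr5low and 33031 to 63202 CPM in the Lgr5neg libraries, and 25 of 27 genes were lower in Lgr5low cells (median -2.48). Fabp2, the intestinal fatty acid binding protein, was measured at 2133, 1422 and 1763 CPM in Lgr5low and 28059.8, 12466 and 21697 CPM in Lgr5neg cells. Fabp2 had a log2 difference of -3.53 (SE 0.346, adjusted p = 6.38e-06). It took 1.81% to 3.52% of the counts outside mitochondrial ribosomal RNA in Lgr5neg libraries and 0.285% to 0.416% in Lgr5low libraries. Apoa1, an apolipoprotein of chylomicrons, showed 694, 532 and 873 CPM in Lgr5low and 14446, 6568 and 10232 CPM in Lgr5neg cells. Apoa1 had a log2 difference of -3.89 (SE 0.57, adjusted p = 0.0008). Apob, their structural protein, stood at 1197, 734 and 1178 CPM in Lgr5low and 5211, 4979 and 5671 CPM in Lgr5neg cells. Apob had a log2 difference of -2.37 (SE 0.153, adjusted p = 8.55e-11). Among Lgr5neg libraries mouse 2 had the lowest Fabp2 and Apoa1 and mouse 1 the highest. Abca1, a cholesterol exporter, differed by -3.68 (SE 0.164).

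The transcription factors of enterocytes were mostly lower in Lgr5low cells, 21 of 30, with 2 higher (median -0.89). Maf, a regulator of mature enterocytes, was measured at 48.3, 27.1 and 32.4 CPM in Lgr5low and 291, 278 and 302 CPM in Lgr5neg cells. Maf had a log2 difference of -3.03 (SE 0.348, adjusted p = 8.14e-05). Creb3l3, which controls lipid genes, showed 42, 24.6 and 41.6 CPM in Lgr5low and 289, 157 and 185 CPM in Lgr5neg cells. Creb3l3 had a log2 difference of -2.54 (SE 0.187, adjusted p = 3.25e-09). Prdm1, a repressor known for the fetal to adult switch of the epithelium, stood at 1.12, 0.582 and 2 CPM in Lgr5low and 6.24, 6.33 and 7.03 CPM in Lgr5neg cells. Prdm1 had a log2 difference of -2.50 (SE 0.364, adjusted p = 6.49e-06). Hnf4a, a factor needed for the brush border program, was not called, at 528, 574 and 660.1 CPM in Lgr5low and 583, 658 and 659.8 CPM in Lgr5neg cells. Hnf4a had a log2 difference of -0.11 (SE 0.127, adjusted p = 0.475). The difference turned to 0.41 and was called with total-count scaling (adjusted p = 0.0089) and was 0.01 with upper quartile scaling. Klf4, known from goblet cells and mature enterocytes, was not called either, at 98.2, 130.5 and 131 CPM in Lgr5low and 224, 142 and 149 CPM in Lgr5neg cells. Klf4 had a log2 difference of -0.58 (SE 0.349, adjusted p = 0.196). It was called lower in the fits to these 6 libraries with and without the mouse term (adjusted p = 0.034 and 0.0328) and without the filter on low counts (adjusted p = 0.00166). Ehf, an ETS factor of epithelia, was higher in Lgr5low cells, at 113, 125 and 144 CPM in Lgr5low and 41.1, 72 and 65 CPM in Lgr5neg cells. Ehf had a log2 difference of 1.10 (SE 0.165, adjusted p = 1.14e-05).

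Of 27 genes of fatty acid oxidation and PPAR targets 22 were lower and 4 higher (median -0.81), and 13 were lower with total-count scaling. In the glycolysis and hypoxia list 17 of 26 were lower and 2 higher (median -1.01). G6pc, which releases free glucose, was measured at 8.47, 3.4 and 7.93 CPM in Lgr5low and 75.8, 41.2 and 81.4 CPM in Lgr5neg cells. G6pc had a log2 difference of -3.34 (SE 0.23, adjusted p = 8.39e-10). Hk2, the hexokinase of dividing cells, showed 22.3, 44.6 and 36.2 CPM in Lgr5low and 14.2, 14.1 and 6.53 CPM in Lgr5neg cells. Hk2 had a log2 difference of 1.55 (SE 0.244, adjusted p = 8.3e-05).

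Of 35 nuclear genes of the respiratory chain 30 were lower in Lgr5low cells (median -0.58) and none passed the test against 2-fold; only 3 were lower with total-count scaling. Cox5a, a subunit of cytochrome oxidase, stood at 49.3, 44.7 and 37.6 CPM in Lgr5low and 93, 81.5 and 80.8 CPM in Lgr5neg cells. Cox5a had a log2 difference of -0.96 (SE 0.132, adjusted p = 2.97e-06). Uqcrc1, a subunit of complex III, was not called. Uqcrc1 had a log2 difference of -3.81 (SE 1.38, adjusted p = 0.0544). It was called lower under 7 alternatives, among them DESeq2 (adjusted p = 0.00118), the fits to these 6 libraries with and without the mouse term (adjusted p = 0.00133 and 0.0118), all 24 libraries (adjusted p = 0.0239) and no mouse term (adjusted p = 0.032). Its Lgr5neg levels of 2885, 441 and 2283 CPM differed between mice by more than the Lgr5low levels of 145, 123 and 172 CPM. The spread of Uqcrc1 was also wide in Lgr5med cells of these mice, which are part of the main fit. There it stood at 826 ± 1202 CPM, against 89.1 ± 19.4 CPM in Lgr5high cells (SD, n = 3). Of 8 tested mitochondrially encoded mRNAs 7 were lower (median -0.69) and 2 with total-count scaling, while the other 5 of the 13 had at most 3 counts in either population. Cholesterol synthesis had 13 of 24 genes lower and 1 higher (median -0.46); the median was 0.06 and 4 were lower with total-count scaling. Sc5d, an enzyme of its last steps, was measured at 26.1, 22.7 and 22.8 CPM in Lgr5low and 79.7, 64.8 and 62.5 CPM in Lgr5neg cells. Sc5d had a log2 difference of -1.53 (SE 0.134, adjusted p = 6.81e-09). In contrast to these small differences, all 29 tested genes of xenobiotic metabolism were lower in Lgr5low cells (median -2.25, range -3.35 to -1.03). The cytochrome P450 gene Cyp4f14 stood at 167, 128 and 148 CPM in Lgr5low and 1894, 1118 and 1505 CPM in Lgr5neg cells. Cyp4f14 had a log2 difference of -3.35 (SE 0.281, adjusted p = 7.62e-07).

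Of 23 tested Reg lectins and other genes of epithelial defence, 14 were lower in Lgr5low cells and 6 higher (median -1.09). With Reg3b, its neighbours in the Reg cluster Reg3g and Reg3a were higher in Lgr5neg cells. Reg3g was measured at 267, 199.9 and 249 CPM in Lgr5low and 2467, 1916 and 2195 CPM in Lgr5neg cells. Reg3g had a log2 difference of -3.20 (SE 0.208, adjusted p = 6.31e-10). Reg3a stood at 16.2, 9.58 and 14.5 CPM in Lgr5low and 183, 146 and 167 CPM in Lgr5neg cells. Reg3a had a log2 difference of -3.63 (SE 0.227, adjusted p = 2.4e-09). These genes are close copies and may share reads. Nos2, inducible nitric oxide synthase, showed 5.57, 1.88 and 0.839 CPM in Lgr5low and 36.3, 62.4 and 15.6 CPM in Lgr5neg cells. Nos2 had a log2 difference of -3.81 (SE 0.403, adjusted p = 6.15e-06). Higher in Lgr5low cells was Reg4, a lectin of goblet and endocrine cells, at 25.2, 46.9 and 106 CPM in Lgr5low and 1.73, 3.9 and 3.72 CPM in Lgr5neg cells. Reg4 had a log2 difference of 4.16 (SE 0.264, adjusted p = 6.36e-10). The chemokine gene Ccl6 stood at 88.2, 187 and 217 CPM in Lgr5low and 15.4, 27 and 22.2 CPM in Lgr5neg cells. Ccl6 had a log2 difference of 2.88 (SE 0.255, adjusted p = 8.57e-07). Retnlb, a goblet cell product, had 126 counts in the 3 Lgr5low libraries and 1 in the 3 Lgr5neg libraries, a ratio of 70.0 (95% interval 12.3 to 2788). Dmbt1, a secreted scavenger receptor and among the most abundant mRNAs of the Lgr5low libraries, stood at 6785, 4701 and 4623 CPM in Lgr5low and 1051, 1528 and 958 CPM in Lgr5neg cells. Dmbt1 had a log2 difference of 2.20 (SE 0.188, adjusted p = 4.77e-09).

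Of 14 villus tip genes 11 were lower in Lgr5low cells and 1 higher (median -2.08). Ada, adenosine deaminase, was measured at 21.9, 19 and 31.7 CPM in Lgr5low and 207, 94.4 and 69.1 CPM in Lgr5neg cells. Ada had a log2 difference of -2.28 (SE 0.42, adjusted p = 0.00223). Nt5e, the enzyme that makes adenosine outside the cell, stood at 2.16, 2.28 and 3.64 CPM in Lgr5low and 22.4, 10.7 and 9.35 CPM in Lgr5neg cells. Nt5e had a log2 difference of -2.38 (SE 0.417, adjusted p = 0.000125). Krt20, a keratin of the upper villus, showed 195, 189 and 268 CPM in Lgr5low and 1779.9, 1261 and 1372 CPM in Lgr5neg cells. Krt20 had a log2 difference of -2.79 (SE 0.511, adjusted p = 0.00259). Of 19 tested tight junction genes 15 were lower and 1 higher (median -0.64), with 6 lower under total-count scaling. Cldn4 stood at 6.27, 3.45 and 4.43 CPM in Lgr5low and 42.7, 34 and 21.8 CPM in Lgr5neg cells. Cldn4 had a log2 difference of -2.78 (SE 0.273, adjusted p = 1.03e-07). The exception was Cldn2, a pore-forming claudin of crypts, at 254, 189 and 214 CPM in Lgr5low and 84.8, 111 and 158 CPM in Lgr5neg cells. Cldn2 had a log2 difference of 0.90 (SE 0.179, adjusted p = 0.000311).

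Antigen presentation genes were higher in Lgr5neg cells, together with lymphocyte markers. The list of intraepithelial lymphocytes, T cells that sit between enterocytes, holds 22 markers. CD45-positive cells had been sorted out. The summed level of the markers, without Trdc, which has no row under that symbol, was 3.24 to 4.3 CPM in the Lgr5low and 99.8 to 216 CPM in the Lgr5neg libraries. Another 8, among them Cd3d and Cd247, had at most 19 counts in Lgr5low and 14 in Lgr5neg libraries and were not tested. Of the 13 tested markers all but Itgae and Cd160 had at most 24 counts over the 3 Lgr5low libraries and passed the filter on low counts through the Lgr5neg libraries, so how many of the list were called is not a result. The p-values and the ranking of single markers below carry the same limit and describe the levels only. Ptprc, which encodes CD45, was measured at 0.125, 0.0896 and 0.0932 CPM in Lgr5low and 8.19, 7.79 and 6.37 CPM in Lgr5neg cells. Ptprc had a log2 difference of -6.12 (SE 0.607, adjusted p = 3.75e-08). Gzmb, granzyme B, showed 0.125, 0.224 and 0.0932 CPM in Lgr5low and 29.1, 46.7 and 23.2 CPM in Lgr5neg cells. Gzmb had a log2 difference of -7.74 (SE 0.411, adjusted p = 1.17e-11). Gzma stood at 0.0415, 1.03 and 0 CPM in Lgr5low and 58.7, 82.6 and 33.6 CPM in Lgr5neg cells. Gzma had a log2 difference of -7.45 (SE 0.54, adjusted p = 6.81e-07). Ccl5, a chemokine of cytotoxic T cells, stood at 0.166, 0.0448 and 0.0932 CPM in Lgr5low and 19, 28.8 and 8.35 CPM in Lgr5neg cells. Ccl5 had a log2 difference of -7.36 (SE 0.441, adjusted p = 3.03e-11). Cd3e, a chain of the T cell receptor complex, stood at 0, 0.269 and 0 CPM in Lgr5low and 3.98, 6.01 and 3.8 CPM in Lgr5neg cells. Cd3e had a log2 difference of -5.68 (SE 0.85, adjusted p = 1.09e-05). Klrd1, an NK receptor chain, had no count in the Lgr5low libraries and 2.48, 2.43 and 1.41 CPM in the Lgr5neg libraries, at least 15.8-fold higher against a floor of 3 counts per library. Every Lgr5neg library was far above every Lgr5low library for these genes. Of the 22 markers 6 had no count in Lgr5low libraries, but most of these had few in Lgr5neg libraries as well. Cd2 had 0 there, and Cd8b1, Zap70, Prf1 and Cd69 had 4, 4, 6 and 10. Gzmb, Gzma and Ccl5 had the 3 largest differences towards Lgr5neg cells among genes whose average log2 CPM was 2 or more.

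Beside these markers, all 8 MHC class II genes were lower in Lgr5low cells (median -2.02), but only 3 of the 8 had groups that did not overlap, and 5 were lower in a fit to these 6 libraries without the mouse term. Cd74, the invariant chain, stood at 16.9, 29.8 and 5.64 CPM in Lgr5low and 75.8, 165 and 23.2 CPM in Lgr5neg cells. Cd74 had a log2 difference of -2.25 (SE 0.324, adjusted p = 0.00023). In both populations mouse 2 was highest and mouse 3 lowest, and the call ended in a fit to these 6 libraries without the mouse term (adjusted p = 0.119). Ciita, the activator of class II genes, showed 0.374, 0.582 and 0.0932 CPM in Lgr5low and 0.977, 4.71 and 0.0827 CPM in Lgr5neg cells and lost its call without either library of mouse 2. Of 17 genes of MHC class I and the immunoproteasome 14 were lower and none higher (median -1.31). B2m, the light chain of class I, was measured at 512, 443 and 543 CPM in Lgr5low and 2158, 1363 and 1663 CPM in Lgr5neg cells. B2m had a log2 difference of -1.78 (SE 0.141, adjusted p = 1.51e-09). H2-T3, a class I gene of enterocytes, stood at 38.9, 38.1 and 36.8 CPM in Lgr5low and 195, 142 and 194 CPM in Lgr5neg cells. H2-T3 had a log2 difference of -2.22 (SE 0.135, adjusted p = 3.79e-11). Class I genes are close copies and may share reads. Of 25 tested interferon response genes 18 were lower and 3 higher (median -1.05); Oasl1 stood at 6.27, 5.55 and 6.9 CPM in Lgr5low and 28.9, 21.3 and 14.7 CPM in Lgr5neg cells. Oasl1 had a log2 difference of -1.77 (SE 0.307, adjusted p = 9.92e-05). Markers of B, plasma and myeloid cells summed to 50.6 to 61.6 CPM in the Lgr5low and 70.9 to 89.9 CPM in the Lgr5neg libraries, and endothelial markers to 1.66 to 2.33 CPM in the Lgr5low and 3.39 to 6.74 CPM in the Lgr5neg libraries. Of the 17 markers of B, plasma and myeloid cells 8 were tested, of which 4 were lower in Lgr5low cells and none higher. Tyrobp, a signalling adaptor of NK and myeloid cells, had 1 count in Lgr5low and 192 in Lgr5neg libraries, and the log2 difference of Fcer1g, another such adaptor, was -4.26. Both passed the filter through the Lgr5neg libraries. The smaller differences were those of Sdc1 (-0.58) and Itgam (-0.38, which turned to 0.15 with total-count scaling). Ms4a1, a B cell gene, had 29 counts in Lgr5low and 4 in Lgr5neg libraries and was not tested. S100a8 and S100a9 were at 0, and Cd79a, Mzb1 and Adgre1 had at most 3 counts in either population. The part of lymphocyte RNA in the antigen presentation and interferon differences was not tested.

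**Figure D3:**
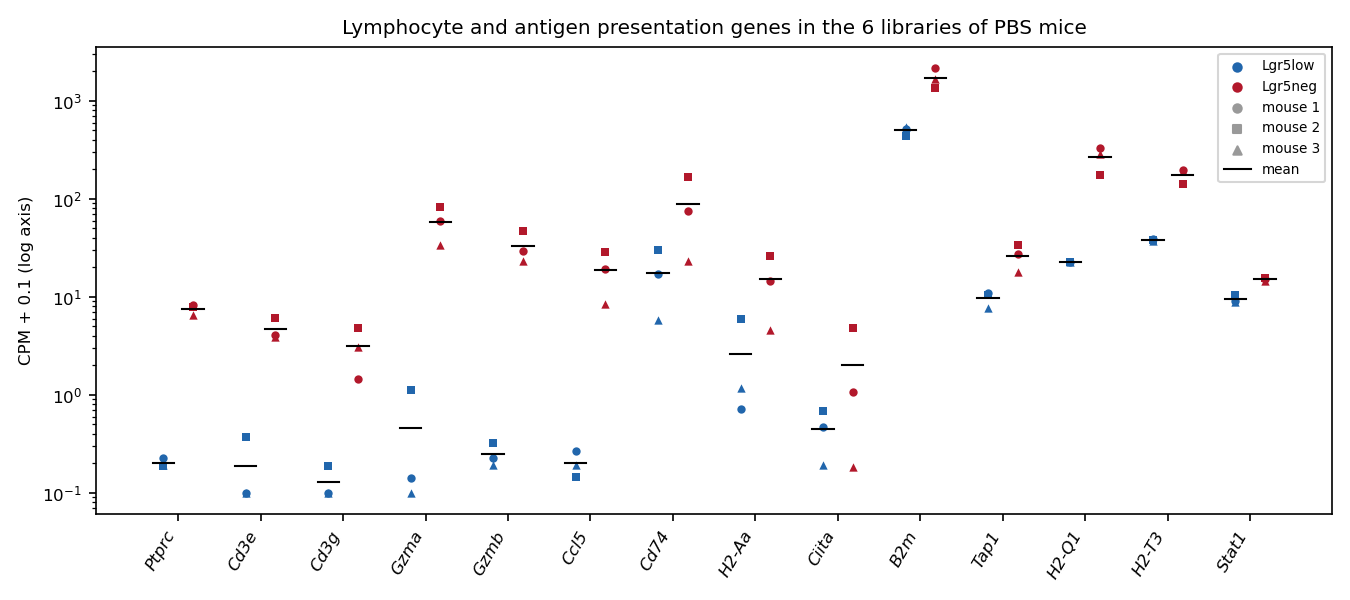
Level of each of 14 genes (x axis) in the 6 libraries (y axis, CPM + 0.1, log scale), with 1 symbol per mouse, Lgr5low in blue and Lgr5neg in red, and bars at the means. The first 6 genes are lymphocyte markers and lie near the floor in Lgr5low libraries, while B2m and the class I genes are measured well above it in both populations.

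Markers of goblet, Paneth and enteroendocrine cells were mostly higher in Lgr5low cells. Of 19 goblet cell markers 16 were higher and none lower (median 2.18). Muc2, the main mucin, was measured at 4709.9, 6121 and 7509 CPM in Lgr5low and 1679.9, 2263 and 1780.2 CPM in Lgr5neg cells. Muc2 had a log2 difference of 1.66 (SE 0.362, adjusted p = 0.0035). Fcgbp, a mucus protein, stood at 5188, 9683 and 11028 CPM in Lgr5low and 1597, 2558 and 2053 CPM in Lgr5neg cells. Fcgbp had a log2 difference of 2.00 (SE 0.363, adjusted p = 0.00106). Spink4, a protease inhibitor, showed 494, 923 and 733 CPM in Lgr5low and 36.7, 54.5 and 43.8 CPM in Lgr5neg cells. Spink4 had a log2 difference of 3.95 (SE 0.256, adjusted p = 1.37e-08). The chemokine gene Ccl9 stood at 74.8, 134 and 101 CPM in Lgr5low and 3.01, 4.38 and 3.39 CPM in Lgr5neg cells. Ccl9 had a log2 difference of 4.85 (SE 0.238, adjusted p = 3.53e-11). Spdef, a factor of goblet cell maturation, stood at 18.4, 21.9 and 26.4 CPM in Lgr5low and 2.1, 3.41 and 3.47 CPM in Lgr5neg cells. Spdef had a log2 difference of 2.96 (SE 0.308, adjusted p = 4.42e-07). Zg16, a lectin of mature goblet cells, was not called, at 1484, 2047 and 3551 CPM in Lgr5low and 975, 1182 and 927 CPM in Lgr5neg cells, although its groups did not overlap. Zg16 had a log2 difference of 1.09 (SE 0.503, adjusted p = 0.106). It was called in the fits to these 6 libraries without and with the mouse term (adjusted p = 0.00144 and 0.000665), without the filter on low counts and with total-count scaling (adjusted p = 0.0174). In the Lgr5med gate Muc2 stood at 3596 ± 1748 CPM and in the Lgr5high gate at 328 ± 224 CPM (SD, n = 3).

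Of 18 tested Paneth cell markers 14 were higher and none lower (median 2.23). Mmp7, the protease that activates defensins, was measured at 30.9, 86.8 and 56.1 CPM in Lgr5low and 5.64, 9.41 and 4.88 CPM in Lgr5neg cells. Mmp7 had a log2 difference of 3.07 (SE 0.197, adjusted p = 1.77e-10). Lyz1, lysozyme, showed 455, 2687 and 2316 CPM in Lgr5low and 184, 410.0 and 452 CPM in Lgr5neg cells, with the Lgr5low library of mouse 1 far below those of mice 2 and 3. Lyz1 had a log2 difference of 2.25 (SE 0.638, adjusted p = 0.0213). The Lyz1 call ended without the Lgr5low library of mouse 2 or 3 or the Lgr5neg library of mouse 1 or 2 (adjusted p = 0.0654 to 0.0823). Defa24, a defensin gene with many close copies, stood at 167, 542 and 499 CPM in Lgr5low and 27.1, 63.2 and 54.4 CPM in Lgr5neg cells. Defa24 had a log2 difference of 3.00 (SE 0.242, adjusted p = 1.37e-07).

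Of 24 tested enteroendocrine markers, 15 were higher in Lgr5low cells and none lower (median 2.47). Members with few Lgr5neg counts, such as Neurog3 (1) and Tph1 (21), passed the filter on low counts through other populations. The count of calls is thus partly set by the filter. Neurog3, the transient factor that starts the endocrine fate, was measured at 2.49, 3.58 and 3.12 CPM in Lgr5low libraries, and its 207 counts in the 3 Lgr5low libraries and 1 in the 3 Lgr5neg libraries gave a ratio of 115 (95% interval 20.4 to 4566) for counting error only. Pax4, which acts after it, had 0.665, 0.537 and 0.886 CPM and no count in any Lgr5neg library, at least 2.91-fold higher against a floor of 3 counts per library. Insm1, another early factor, showed 3.45, 5.24 and 4.62 CPM in Lgr5low and 0, 0.162 and 0.165 CPM in Lgr5neg cells. Insm1 had a log2 difference of 5.30 (SE 0.524, adjusted p = 3.65e-08). Among secreted products, Chgb, a granin of hormone granules, stood at 192, 545 and 937 CPM in Lgr5low and 21.2, 53 and 27.4 CPM in Lgr5neg cells. Chgb had a log2 difference of 3.93 (SE 0.548, adjusted p = 0.000632). Gip stood at 18.5, 80.9 and 40.8 CPM in Lgr5low and 0.15, 1.22 and 0.662 CPM in Lgr5neg cells. Gip had a log2 difference of 6.21 (SE 0.668, adjusted p = 6.66e-05). The proglucagon gene Gcg stood at 36.2, 172 and 105 CPM in Lgr5low and 13.8, 21.9 and 11.1 CPM in Lgr5neg cells. Gcg had a log2 difference of 2.57 (SE 0.426, adjusted p = 0.00128). Tph1, the enzyme of serotonin synthesis, showed 7.93, 11.5 and 16.8 CPM in Lgr5low and 0.0752, 1.3 and 0.331 CPM in Lgr5neg cells. Tph1 had a log2 difference of 4.53 (SE 0.717, adjusted p = 0.000311). Of the 9 not called, 6 were hormone genes: Sct (-0.17), Nts (-0.34), Pyy (-0.79), Ghrl (0.31), Cck (1.17) and Sst (2.24). Sct was measured at 13.4, 18.7 and 16.4 CPM in Lgr5low and 20.7, 26 and 9.59 CPM in Lgr5neg cells and Pyy at 1.58, 5.64 and 2.52 CPM in Lgr5low and 10.7, 6.74 and 0.662 CPM in Lgr5neg cells, so that the groups overlapped. With total-count scaling Sct and Nts turned to 0.36 and 0.18, and Cck, Ghrl and Sst were called higher. Sst was called without the Lgr5low library of mouse 1 (2.76) and without the Lgr5neg library of mouse 2 (4.20), Cck without the latter (1.83), and Pyy was called lower without the Lgr5neg library of mouse 3 (-1.46).

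Of 13 tested tuft cell markers 2 were higher and 2 lower, against 31.6% and 26.4% of all genes (median -0.17, and 0.33 with total-count scaling). The former included Cd24a, which set the gate. Pou2f3, the factor that defines tuft cells, had 116 counts in the 3 Lgr5low libraries and 1 in the 3 Lgr5neg libraries, a ratio of 64.5 (95% interval 11.3 to 2568). Dclk1, a tuft cell kinase, was not called, at 0.208, 1.97 and 1.03 CPM in Lgr5low and 0.15, 1.79 and 1.57 CPM in Lgr5neg cells. Dclk1 had a log2 difference of -0.17 (SE 0.7, adjusted p = 0.851). Its sign turned with total-count scaling.

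**Figure D4:**
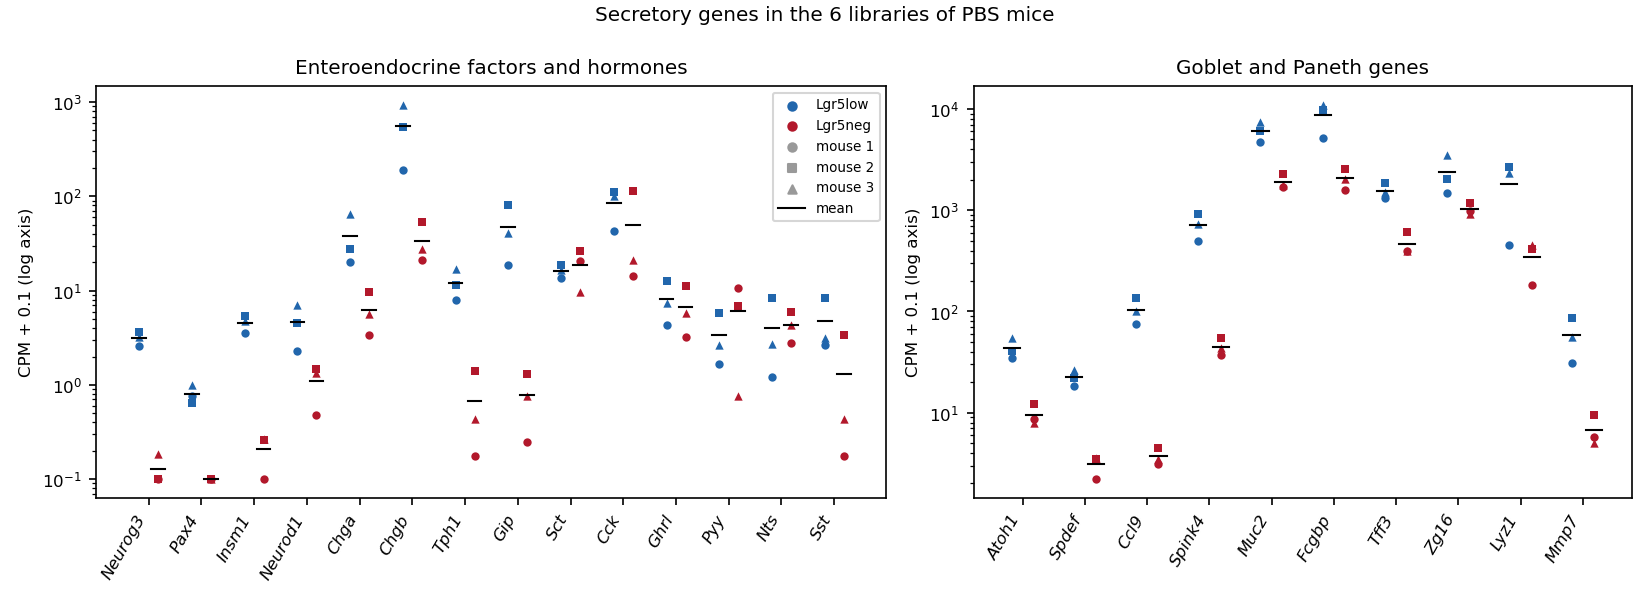
Level of 14 enteroendocrine genes (left) and 10 goblet and Paneth genes (right) on the x axes in the 6 libraries (y axes, CPM + 0.1, log scale), with 1 symbol per mouse, Lgr5low in blue, Lgr5neg in red and bars at the means. The factors Neurog3, Pax4 and Insm1 lie at or near 0 in Lgr5neg libraries, while the hormones Sct, Ghrl, Pyy and Nts overlap between the populations.

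The lists of p53 targets and apoptosis and of immediate-early and dissociation genes held more members lower than higher in Lgr5low cells. Of 25 tested p53 target and apoptosis genes 16 were lower and 4 higher (median -0.94), against 26.4% and 31.6% of all genes. With total-count scaling 11 were lower and 6 higher (median -0.41). Fas, a death receptor, was measured at 1.5, 2.82 and 1.96 CPM in Lgr5low and 19, 16.1 and 11.7 CPM in Lgr5neg cells. Fas had a log2 difference of -2.91 (SE 0.271, adjusted p = 1.59e-08). Bcl2l15, a member of the BCL2 family, stood at 17.7, 19.1 and 19.4 CPM in Lgr5low and 97.7, 107 and 117 CPM in Lgr5neg cells. Bcl2l15 had a log2 difference of -2.51 (SE 0.169, adjusted p = 1.45e-10). Bcl2, which protects against death, stood at 9.55, 15.7 and 16.5 CPM in Lgr5low and 4.06, 5.84 and 2.73 CPM in Lgr5neg cells. Bcl2 had a log2 difference of 1.69 (SE 0.227, adjusted p = 2.82e-06). Trp53 itself stood at 128, 84.6 and 86.8 CPM in Lgr5low and 35.8, 36 and 35.2 CPM in Lgr5neg cells. Trp53 had a log2 difference of 1.46 (SE 0.146, adjusted p = 4.31e-08). Both were higher in every Lgr5low library. Of 21 tested immediate-early and dissociation genes, which respond to the handling of cells, 11 were lower and 4 higher (median -0.60). With total-count scaling 7 were lower and 6 higher (median -0.07, against 0.63 over all genes). In NRG1 mice 7 were lower and 7 higher. Among immediate-early genes of PBS mice, Fos was called lower and Fosb and Egr1 higher in Lgr5low cells. All of these calls ended without the mouse term (adjusted p = 0.148, 0.379 and 0.244). Zfp36, an mRNA decay factor, was measured at 131, 83.2 and 113 CPM in Lgr5low and 501, 338 and 330.2 CPM in Lgr5neg cells. Zfp36 had a log2 difference of -1.84 (SE 0.14, adjusted p = 8.52e-10). Hsp90aa1, a chaperone, stood at 101, 142 and 218 CPM in Lgr5low and 46.1, 48.6 and 79.9 CPM in Lgr5neg cells. Hsp90aa1 had a log2 difference of 1.38 (SE 0.129, adjusted p = 1.62e-08). In the unfolded protein response list 7 of 22 were higher and 5 lower (median 0.15), close to the shares of all genes (31.6% and 26.4%). The count of higher genes was 4 without mouse 3 or without the mouse term. It was 11 without the Lgr5neg library of mouse 1 and 17 with total-count scaling. Ern2, the IRE1 sensor of mucous cells, was measured at 70.4, 103 and 113 CPM in Lgr5low and 13.5, 22.2 and 13.7 CPM in Lgr5neg cells. Ern2 had a log2 difference of 2.55 (SE 0.256, adjusted p = 2.23e-06).

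The 12 largest differences towards Lgr5low cells among genes whose average log2 CPM was 2 or more included several with almost no Lgr5neg counts. These, among them Tcf19, Ska1 and Rab3c, passed the filter on low counts through other populations. Their p-values and ranking carry that limit and describe the levels only. Kcnma1, a calcium-activated potassium channel, had 564 counts in the 3 Lgr5low libraries and 2 in the 3 Lgr5neg libraries, a ratio of 157 (95% interval 43.2 to 1298). Vangl2, a planar polarity protein, had 229 counts in the 3 Lgr5low libraries and 1 in the 3 Lgr5neg libraries and a ratio of 127 (95% interval 22.6 to 5049), and Tube1, epsilon-tubulin, had 249 counts in the 3 Lgr5low libraries and 2 in the 3 Lgr5neg libraries and a ratio of 69.2 (95% interval 19 to 575). Tcf19 was measured at 11.7, 11.2 and 7.97 CPM in Lgr5low and 0.0752, 0.0811 and 0.248 CPM in Lgr5neg cells. Tcf19 had a log2 difference of 6.21 (SE 0.363, adjusted p = 2.35e-11). Ska1, a kinetochore protein, stood at 6.94, 7.03 and 6.15 CPM in Lgr5low and 0.0752, 0.162 and 0.165 CPM in Lgr5neg cells. Ska1 had a log2 difference of 5.60 (SE 0.361, adjusted p = 8.38e-11). Slfn9 stood at 63.6, 53.8 and 69.7 CPM in Lgr5low and 0.902, 2.27 and 1.24 CPM in Lgr5neg cells. Slfn9 had a log2 difference of 5.40 (SE 0.229, adjusted p = 7.38e-13). Rab3c, a small GTPase of secretory vesicles, showed 7.44, 10.0 and 20.2 CPM in Lgr5low and 0.15, 0.649 and 0 CPM in Lgr5neg cells. Rab3c had a log2 difference of 5.49 (SE 0.584, adjusted p = 1.21e-06). Towards Lgr5neg cells the 12 comprised 3 lymphocyte genes and 9 others, among them the phospholipase Plb1, at 33.8, 15.9 and 42.7 CPM in Lgr5low and 754, 692 and 1229.8 CPM in Lgr5neg cells. Plb1 had a log2 difference of -4.86 (SE 0.436, adjusted p = 2.9e-05). The phosphate transporter Slc34a2 stood at 35.4, 17.2 and 36.4 CPM in Lgr5low and 654, 569 and 595 CPM in Lgr5neg cells. Slc34a2 had a log2 difference of -4.36 (SE 0.487, adjusted p = 0.00017). Slc5a8 and Slc13a2, carriers of organic acids, had differences of -4.39 (SE 0.329) and -4.26 (SE 0.277).

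The step from Lgr5low to Lgr5neg was compared with the step before it. Between Lgr5med and Lgr5low cells of the same mice 1523 of 14203 genes were called (10.7%) and 18 passed the test against 2-fold (0.127%). Both comparisons use the same Lgr5low libraries, so their counts are set side by side only. In the earlier step 3 of 28 G2/M genes were called, with a median of 0.19, and 9 of 26 ribosome biogenesis genes. Of the S phase genes 16 of 31 were higher in Lgr5med cells (median 0.46), of the homologous recombination and repair genes 8 of 27 (median 0.38) and of the stem cell markers 19 of 26 (median 1.06), and none of these was lower. Of the brush border hydrolases 18 of 21 were already lower in Lgr5med than in Lgr5low cells (median -1.89), as were 22 of 27 lipid absorption genes (median -1.20) and 26 of 29 genes of xenobiotic metabolism (median -1.42). Of the goblet markers 2 of 19 were called. Whether the earlier and later steps differ from each other was not tested. Mki67 stood at 915 ± 66.5, 784 ± 35.5, 664 ± 79.1 and 36 ± 12.3 CPM from Lgr5high to Lgr5neg, and Sis at 42.2 ± 16.1, 145 ± 53.7, 525 ± 136 and 4742 ± 804 CPM (SD, n = 3 each).

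The same pair of populations in the 3 NRG1 mice shares no library with the PBS mice. There 8632 of 14307 genes were called (60.3%), 4605 higher (32.2%) and 4027 lower (28.1%) in Lgr5low cells. Over 13841 genes tested in both, 7121 were called in the same direction, which is 87.7% of the 8120 called in PBS and 83.6% of the 8517 called in NRG1 mice, and 3 were called in opposite directions. Across these genes, which are not independent replicates, the log2 differences had a Pearson r of 0.89. All 28 G2/M genes were higher and 20 of 21 brush border hydrolases lower in NRG1 mice as well, with medians of 3.42 and -3.40. Of the enteroendocrine list 22 of 23 genes were called higher in NRG1 mice, against 15 of 24 in PBS mice, and of the ribosomal protein genes 32 of 39 against 39 of 39; neither difference between lists was tested.

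Tested gene by gene over all 24 libraries, the step differed between PBS and NRG1 mice for 4 of 15045 genes (0.0266%), while 1137 (7.56%) had an unadjusted p under 0.05. Axin2 was measured at 52.6, 50.7 and 54.7 CPM in Lgr5low and 46.7, 41.1 and 40.4 CPM in Lgr5neg cells of PBS mice, and at 59.96, 81.7 and 56.5 CPM and 15.1, 15.6 and 18.4 CPM in NRG1 mice, each treatment scaled on its own. In PBS mice the populations were close, and in NRG1 mice all Lgr5low libraries were more than 3 times the Lgr5neg libraries (PBS minus NRG1 -1.71, SE 0.215, adjusted p = 0.000198). Clic4, an intracellular chloride channel protein, stood at 27.2, 30.8 and 33.3 CPM and 9.62, 11 and 10.2 CPM in PBS mice and 35.6, 39.2 and 38.5 CPM and 4.04, 4.55 and 5.48 CPM in NRG1 mice (-1.46, SE 0.198, adjusted p = 0.000463). Sema7a, a membrane-anchored semaphorin, showed 11.8, 8.96 and 13.2 CPM and 12.5, 6.74 and 6.04 CPM in PBS mice, which overlapped, and 16.9, 24.8 and 22.2 CPM and 3.03, 4.42 and 6.87 CPM in NRG1 mice (-1.74, SE 0.299, adjusted p = 0.0209). For Rrm2 the step was larger in PBS mice, with 49.9, 53.6 and 37.5 CPM and 1.28, 1.7 and 1.82 CPM against 27.7, 27.4 and 27.4 CPM and 2.27, 3.21 and 3.32 CPM in NRG1 mice (1.64, SE 0.265, adjusted p = 0.00593). Axin2 and Clic4 kept their calls under all 16 alternatives. The Rrm2 call ended without mouse 3 of each treatment (adjusted p = 0.0556) and without the Lgr5neg PBS library of mouse 1 (0.0804), and the Sema7a call ended without the mouse term (adjusted p = 0.429) and in 6 of the 12 fits that left out 1 library (adjusted p = 0.0658 to 0.12).

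**Figure D5:**
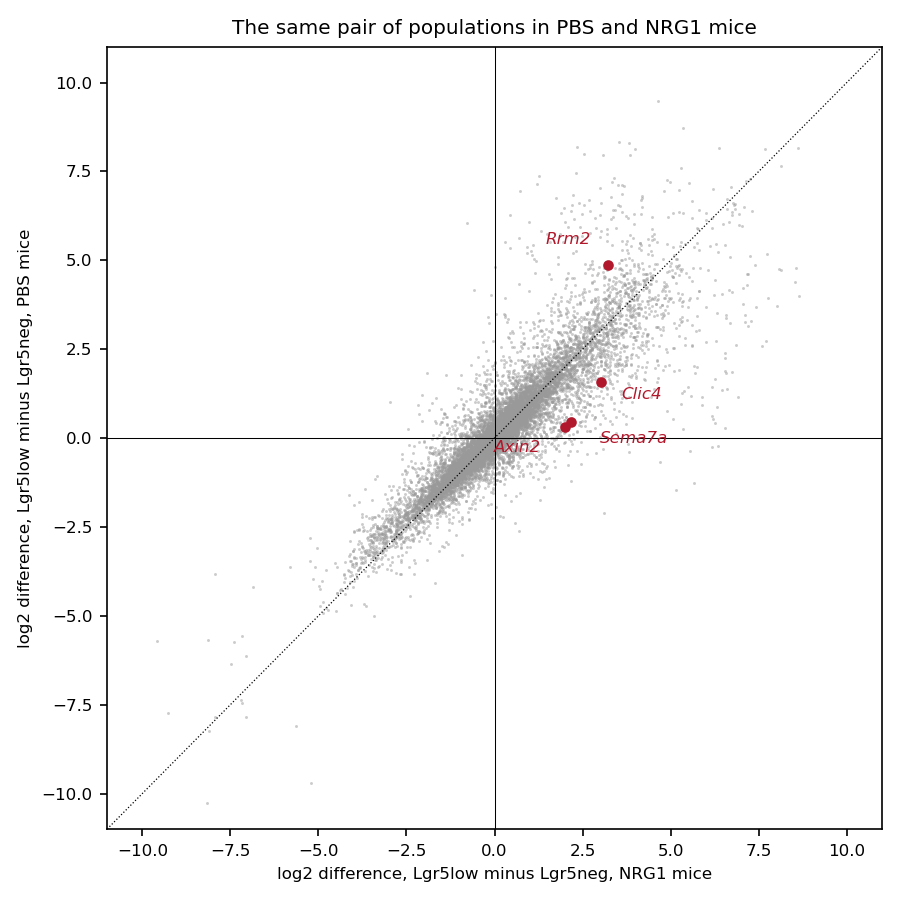
Log2 difference between Lgr5low and Lgr5neg cells in NRG1 mice (x axis) and in PBS mice (y axis) for 13841 genes tested in both, with equality as the dotted line. The 4 red genes are those whose differences were called different between the treatments: Axin2, Clic4 and Sema7a lie below the line and Rrm2 above it.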

How the data were processed

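Total RNA of 24 sorted populations was sequenced, and the deposited table holds whole-number read counts per gene symbol, not normalized. Per the submitters' processing notes the authors used STAR, featureCounts and GRCm38; versions, strand setting and annotation release are not given in the sources used here. Without strand, reads of overlapping and antisense genes cannot be told apart. Of 43280 symbols 39469 matched the GENCODE annotation directly, 940 through an older symbol and 2871 not at all.

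Counts of the 12 PBS libraries were tested with edgeR 4.0.16 (R 4.3.3): TMM factors, filterByExpr (at least 10 counts, 15 in total), a robust quasi-likelihood fit with 4 populations and the mouse as terms, and Benjamini-Hochberg adjustment over all 14203 genes. Differences over 2-fold were tested with glmTreat. The NRG1 mice were fitted in the same way, and the difference between treatments was tested over 24 libraries with the mouse nested in treatment. Each library comes from 1 mouse and population. The pairing comes from the mouse numbers. Deviations of same-numbered libraries from their population means correlated at 0.128, 0.106 and 0.104, and other pairs at -0.0876 to -0.015. Taking deviations from those means makes the other pairs negative on average when same-numbered pairs are positive, so their values add no separate evidence. Tested on simulated data for this comparison (13774 genes), the fit recovered 15 of 50 genes changed 1.5-fold, 43 of 50 changed 2-fold, and 50 of 50 changed 4-fold and 8-fold, with 12 false calls. The changed genes were few and drawn from those with a mean of 50 or more counts. All populations shared 1 makeup, and the spread between mice was assumed. In the data 58% of genes were called and makeup differed, so these figures may not carry over to this comparison or to genes with few counts.

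The members and the 45 gene lists were chosen with earlier results of these data known. Genes named are the 12 largest called differences in each direction without overlap between populations and with an average log2 CPM of 2 or more, up to 3 per list in its main direction and 2 in the other, listed anchor genes, the 5 most abundant genes of each population, up to 5 with the smallest adjusted p in the test between treatments, and some named after their values were seen. Promoter windows are RefSeq's (GRCm38.p6). Alternatives were other scalings (RLE, upper quartile, total counts, TMM without mitochondrial ribosomal RNA), DESeq2 1.42.0, no filter, other sets of libraries, no mouse term and leaving out each library. Intervals of ratios are 95% and cover counting error only; reads carry no molecular identifiers.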

Additional observations from a re-analysis of the deposited data

Results flagged for a closer look

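The step from Lgr5low to Lgr5neg was called different between PBS and NRG1 mice, by the test of that difference over all 24 libraries (edgeR, mouse nested in treatment, 3 mice per treatment), for these genes, which is 0.0266% of those tested. The log2 difference in PBS mice minus that in NRG1 mice was -1.71, SE 0.215, adjusted p = 0.000198 for Axin2, -1.46, SE 0.198, adjusted p = 0.000463 for Clic4, -1.74, SE 0.299, adjusted p = 0.0209 for Sema7a and 1.64, SE 0.265, adjusted p = 0.00593 for Rrm2. For Axin2 the step was 0.31 in PBS and 2.00 in NRG1 mice, for Clic4 1.57 and 3.01, for Sema7a 0.45 and 2.18, and for Rrm2 4.87 and 3.22. What underlies these differences was not tested.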

How the results depend on the processing

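The number of genes called between Lgr5low and Lgr5neg cells of PBS mice ranged from 7023 to 9199 over the alternatives, 7359 to 7922 when 1 library was left out, against 8232, and was 7931 with no replicate block. Those over 2-fold ranged from 2459 to 3959 (2860 to 3165 leaving out 1 library). In NRG1 mice leaving out 1 library gave 7619 to 8250 calls. The number of genes whose step differed between treatments was 4, and it became 7 with RLE scaling, 165 without a filter on low counts and 2 to 16 when 1 library was left out: 2 without the Lgr5neg PBS library of mouse 1, 13 without that of mouse 3, 16 without the Lgr5low or the Lgr5neg NRG1 library of mouse 1, and 7 without the Lgr5neg NRG1 library of mouse 2 or 3. It was 3 with no replicate block. The cause was not tested.

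Of 273 named genes with a test 221 kept their direction and their side of the threshold under the 17 alternatives and 52 did not; Wnt3 was not tested in the 2 fits to these 6 libraries alone. Reversed directions with total-count scaling were Rbl2 (0.28), Tet2 (0.066), Ctnnb1 (0.022), Efnb1 (0.037), Hnf4a (0.41), Dclk1 (0.33), Itgam (0.15), Nts (0.18) and Sct (0.36); Hnf4a also reversed with upper quartile scaling (0.0145) and Dclk1 with 15-week-old mice only (0.18). Leaving out 1 library reversed Dclk1 (-0.42 to 0.32), Nts (-1.10 to 0.0056), Pyy (-1.46 to 0.39) and Sct (-0.48 to 0.23). Depth limits genes with few counts: 3 counts correspond to 0.125 to 0.14 CPM in Lgr5low and 0.226 to 0.248 CPM in Lgr5neg libraries.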
